A study of Mus musculus with 4 samples.

Results

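The expression of 10 genes of Toll-like receptors and of lipopolysaccharide (LPS) sensing was examined in liver: Tlr1, Tlr2, Tlr3, Tlr4, Tlr5, Tlr7, Cd14, Ly96, Lbp and Myd88. They were taken by symbol from the 24346 genes listed for each library, and all 10 were listed above 0 in every library. RNA sequencing covered the liver of male ob/ob mice, a strain that carries no working leptin and becomes obese, in 4 groups with 1 library each. CD was regular chow with 1% cholesterol, WD was a high fat diet with 1% cholesterol, and CD+7KC and WD+7KC were the same diets with 0.01% 7-ketocholesterol (7KC), an oxidized cholesterol. Feeding began at 6 weeks of age and lasted 4 weeks, so that leptin deficiency, added cholesterol and age were shared by all groups. Because each group had 1 library, and the sources do not say how many mice were behind a library, differences between groups could not be set against a spread between mice and carry no p-values. Leptin itself takes part in inflammatory responses, which limits this strain as a model.

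Toll-like receptors are membrane proteins that recognise microbial molecules. Those on the cell surface bind lipids and proteins of bacteria (TLR4 for LPS, TLR2 with TLR1 or TLR6 for lipoproteins, TLR5 for flagellin), and those in endosomes bind nucleic acids (TLR3, TLR7, TLR8 and TLR9) or ribosomal RNA of bacteria (TLR13). LPS is handed from the plasma protein LBP to CD14 and then to MD-2, the product of Ly96, which is bound to TLR4. Most of these receptors signal through the adaptor MyD88 to NF-κB, whereas TLR3 uses another adaptor. In the liver, which receives blood from the gut, Kupffer cells and other leukocytes carry many of these receptors, sinusoidal endothelial cells carry some, and hepatocytes secrete LBP.

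Levels are given as FPKM, fragment numbers divided by transcript length and library size, so that genes of different length can be compared. Log2 fold changes were computed from FPKM + 0.1, which understates the change of low genes, and a change above 1 or below -1 was counted. WD+7KC set against WD and CD+7KC set against CD are written as 7KC under WD and under CD. By the steps between low FPKM values, 1 FPKM stood for 9.45 (WD) to 12.16 (WD+7KC) reads per kilobase, and read numbers estimated in this way gave 95% exact (Clopper-Pearson) counting intervals. These intervals cover counting error between the libraries only and not the variation between mice. They belong to the ratio of reads without the added 0.1, so for low genes they are not centred on the printed change. For Tlr9 with 7KC under WD, for example, the printed change is 1.53 and that without the 0.1 is 2.54. For genes of higher level the intervals and printed changes differ little in this respect. The intervals are approximate for Tlr1, Tlr3, Tlr7 and Ly96, which have more than 1 RefSeq mRNA. Tlr1 shares 11.5% of its 75-base words with Tlr6, so that reads from these regions cannot be assigned with certainty, and none of the other 9 genes shares a word of this length with another gene. FPKM values summed to 602059 in WD+7KC and to at most 715605 in the other libraries, and rescaling to equal sums moved the median of all genes with 7KC under WD from 0.002 to 0.21. Where rescaling turned the direction of a change printed for the 10 genes in comparisons with WD+7KC, or moved it by more than 1.5 times, both values are given. The hepatocyte marker list had 7 of 8 genes in the tables, none of them at 0, and a summed level of 61443 FPKM in WD+7KC and 85665 FPKM in CD.

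To show the sequence around a start of these genes, RefSeq promoter windows (GRCm38.p6, 250 bases before to 50 after the start) are given for the 5 of 10 genes that matched: Tlr1, Tlr2, Tlr3, Tlr5 and Myd88. The windows of Tlr3 and Myd88 lie wholly inside the gene spans given below, so their starts are not the outermost annotated ones. Tlr4, Tlr7, Cd14, Ly96 and Lbp had no entry. For Tlr1, which has more than 1 start, the upstream window is shown. Capitals mark matches, on either strand, to the ETS core GAGGAA, to the interferon-stimulated response element (GAAA, 2 bases of any kind, GAAA) or to the NF-κB motif.
Tlr1, chr5:64933509-64933808, strand -: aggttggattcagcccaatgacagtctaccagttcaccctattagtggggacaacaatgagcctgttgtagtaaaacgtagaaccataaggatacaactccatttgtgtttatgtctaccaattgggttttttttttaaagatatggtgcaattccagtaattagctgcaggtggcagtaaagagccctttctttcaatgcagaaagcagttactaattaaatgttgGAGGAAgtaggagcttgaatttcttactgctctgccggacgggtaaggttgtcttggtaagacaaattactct
Tlr2, chr3:83841559-83841858, strand -: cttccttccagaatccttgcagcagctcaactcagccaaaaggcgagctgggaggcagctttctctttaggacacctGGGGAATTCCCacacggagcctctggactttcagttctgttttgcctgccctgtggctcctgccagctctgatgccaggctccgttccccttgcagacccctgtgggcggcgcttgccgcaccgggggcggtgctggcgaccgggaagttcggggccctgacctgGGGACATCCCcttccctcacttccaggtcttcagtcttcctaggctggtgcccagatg
Tlr3, chr8:45410331-45410630, strand -: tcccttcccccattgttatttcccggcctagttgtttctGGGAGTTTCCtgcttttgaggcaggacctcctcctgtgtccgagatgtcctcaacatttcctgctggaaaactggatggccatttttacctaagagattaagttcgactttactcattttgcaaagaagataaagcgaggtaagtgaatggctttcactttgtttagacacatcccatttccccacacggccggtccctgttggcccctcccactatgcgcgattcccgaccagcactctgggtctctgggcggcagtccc
Tlr5, chr1:182954538-182954837, strand +: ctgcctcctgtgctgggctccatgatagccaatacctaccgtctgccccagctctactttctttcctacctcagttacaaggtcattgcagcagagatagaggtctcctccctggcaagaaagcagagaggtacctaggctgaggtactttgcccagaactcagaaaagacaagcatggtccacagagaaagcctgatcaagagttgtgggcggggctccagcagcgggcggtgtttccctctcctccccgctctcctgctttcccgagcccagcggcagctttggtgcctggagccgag
Myd88, chr9:119339969-119340268, strand -: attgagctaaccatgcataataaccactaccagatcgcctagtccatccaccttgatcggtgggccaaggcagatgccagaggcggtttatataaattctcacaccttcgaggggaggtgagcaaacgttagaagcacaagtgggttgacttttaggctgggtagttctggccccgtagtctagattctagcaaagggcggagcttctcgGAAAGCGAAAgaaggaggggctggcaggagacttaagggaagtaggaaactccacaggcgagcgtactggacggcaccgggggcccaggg
The NF-κB motif was matched in the windows of Tlr2 and Tlr3 and in 8.46% of all 32851 promoter windows. In Tlr2 it lay at position -173, where a second match overlaps the first, and at position -8, and in Tlr3 at position -211 relative to the start. The interferon element was matched at position -40 of Myd88 and in 3.44% of all windows, and the ETS core at position -23 of Tlr1 and in 28.3% of all windows. The window of Tlr5 held none of the 3 motifs. A match describes letters only and not a bound site.

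Lbp had the highest level of the 10 genes in every library, followed by Ly96 and Myd88. In CD the order below them was Tlr5, Cd14, Tlr2, Tlr3, Tlr7, Tlr4 and Tlr1, and the last 3 of these were under 1 FPKM in CD, CD+7KC and WD. In WD+7KC all 10 genes were above 1 FPKM, and Cd14 lay above Tlr5. Tlr1 had the lowest level in CD and CD+7KC, whereas Tlr7 was lowest in WD and Tlr4 in WD+7KC. Among all genes above 0 FPKM, Lbp ranked at the 89.8 percentile in CD and Tlr4 at the 23.5 percentile.

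**Figure D1:**
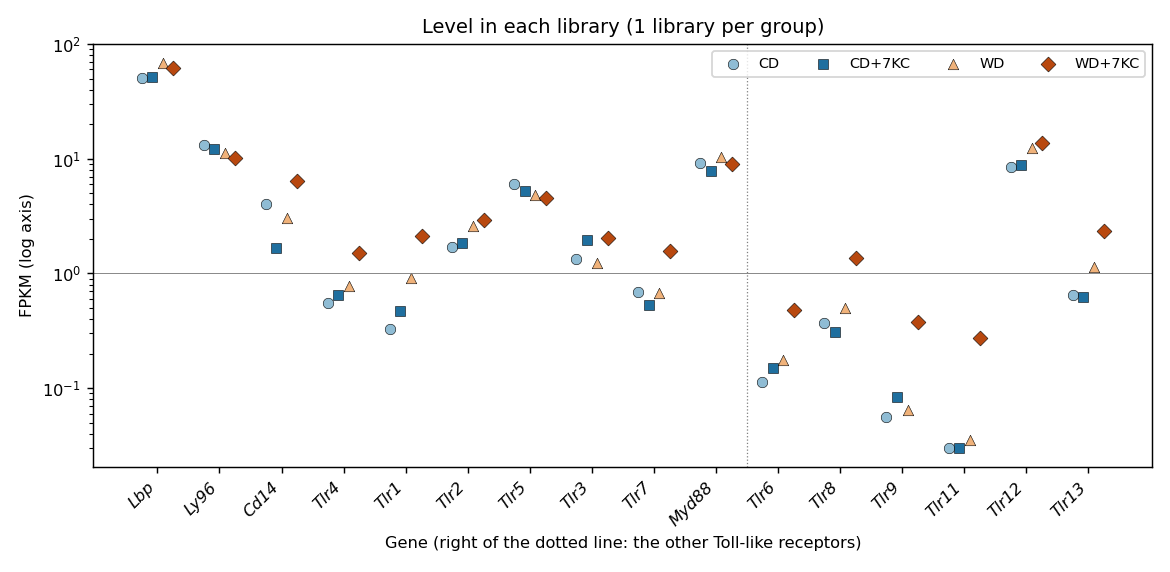
FPKM (log axis) of the 10 genes and, right of the dotted line, of the other Toll-like receptors, with 1 point per library (circle CD, square CD+7KC, triangle WD, diamond WD+7KC). Lbp sits between 50.3 and 68.1 FPKM in all libraries, while the WD+7KC points of Tlr1, Tlr4, Tlr7 and Cd14 lie above those of the other libraries.

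Tlr1, Tlr4, Tlr7 and Cd14 had their highest levels in WD+7KC, as did Tlr2 and Tlr3 by smaller margins, whereas Tlr5, Ly96, Lbp and Myd88 were slightly below their WD level there. With 7KC under WD, 3 of the 10 genes had a log2 fold change above 1 (Tlr1, Tlr7 and Cd14) and none was below -1, beside 6.21% of 15753 genes above 1 and 2.79% below -1. The median of the 10 genes was 0.43, and that of all genes 0.002. With the deposited values 6 genes were higher and 4 lower, and at equal sums the split was 9 to 1, where that of all genes was 11502 to 4251. With 7KC under CD, none was above 1 and 1 (Cd14) was below -1, beside 3.84% of 15684 genes above 1 and 2.91% below -1. The median was -0.04, with 5 genes higher and 5 lower. These 2 comparisons share no library. A pseudocount of 1 in place of 0.1 left 0 of the 10 genes past 1 or -1 in either comparison. It is larger than the levels of Tlr1, Tlr4 and Tlr7 in CD, CD+7KC and WD, and so shrinks their changes. The share of all genes past 1 or -1 under it is not given here.

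**Figure D2:**
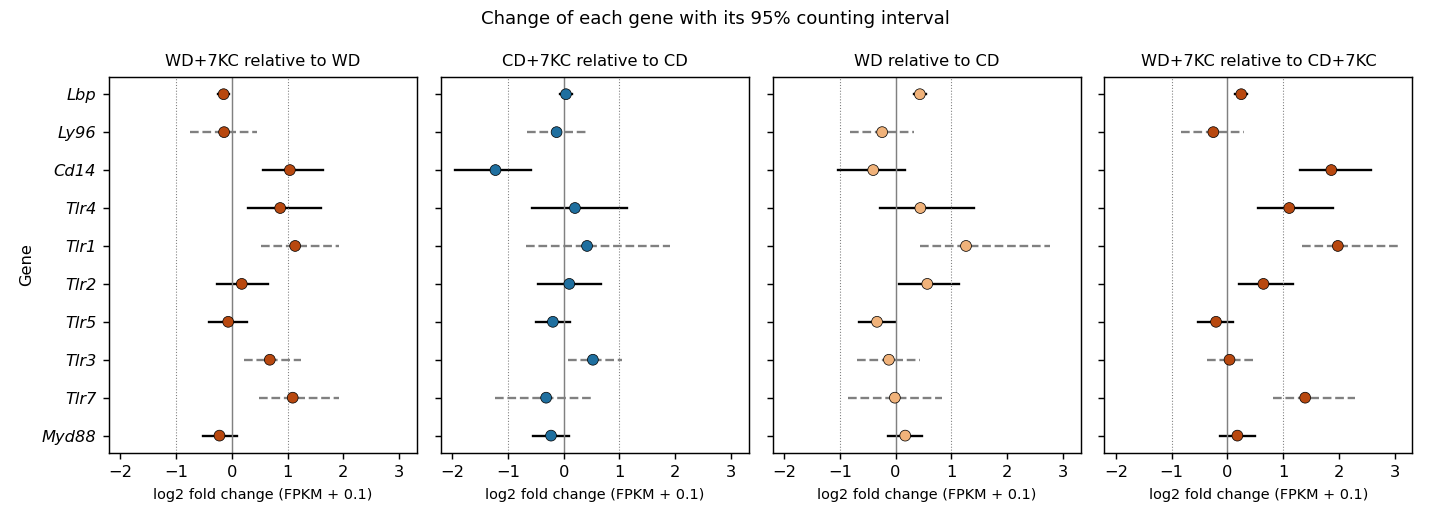
Log2 fold change of each of the 10 genes (points) in the 4 comparisons, with 95% counting intervals (solid lines, or dashed where a gene has more than 1 RefSeq mRNA). Dotted lines mark 1 and -1. Cd14 lies at 1.04 with 7KC under WD and at -1.22 with 7KC under CD, and Tlr1 lies at 1.98 for WD+7KC against CD+7KC.

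The genes of LPS transfer were first compared. Lbp (chromosome 2, 158306493 to 158332852, plus strand, GRCm38), the plasma protein that extracts LPS from bacterial membranes, was at 50.3 FPKM on CD and 51.7 on CD+7KC, compared to 68.1 on WD and 61.4 on WD+7KC. It was higher in both WD libraries than in both CD libraries. The log2 fold change was 0.44 for WD against CD (0.33 to 0.55) and 0.25 for WD+7KC against CD+7KC (0.14 to 0.35, or 0.46 at equal sums), on an estimated 1286 to 1737 reads. With 7KC under WD it was -0.15 (-0.25 to -0.05), which became 0.07 (-0.03 to 0.17) at equal sums, and with 7KC under CD it was 0.04 (-0.07 to 0.15).

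Cd14 (chromosome 18, 36725067 to 36726798, minus strand), the co-receptor that passes LPS to MD-2, was at 4.05 FPKM on CD and 1.68 on CD+7KC, compared to 3.05 on WD and 6.37 on WD+7KC. It was the only one of the 10 genes that lay below -1 with 7KC under CD and above 1 with 7KC under WD. The log2 fold change was -1.22 with 7KC under CD (-1.95 to -0.58, an estimated 26.6 and 64.2 reads) and 1.04 with 7KC under WD (0.56 to 1.64, 112 and 41.5 reads). At equal sums the values were -1.18 and 1.25. The difference between the diets, 2.26 on the log2 scale, cannot be tested with 1 library per group. Cd14 was lower in WD than in CD, at -0.40 (-1.03 to 0.16), but with an interval that included 0. For WD+7KC against CD+7KC it was 1.86 (1.29 to 2.57), a comparison that shares its libraries with those on 7KC.

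Ly96 (chromosome 1, 16688051 to 16709611, plus strand), which encodes the MD-2 protein that binds LPS, was at 13.3 FPKM on CD and 12.1 on CD+7KC, compared to 11.2 on WD and 10.2 on WD+7KC. The lowest level was in WD+7KC, but its log2 fold changes, from -0.25 to -0.13 in the 4 comparisons, all had counting intervals that included 0. Its mRNA is short, and an estimated 45.7 to 63.0 reads stood behind these values. At equal sums, -0.14 with 7KC under WD became 0.08, and -0.25 for WD+7KC against CD+7KC became -0.05.

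Tlr4 (chromosome 4, 66827584 to 66930284, plus strand), the LPS receptor, was at 0.548 FPKM on CD and 0.645 on CD+7KC, compared to 0.782 on WD and 1.51 on WD+7KC. The log2 fold change with 7KC under WD was 0.87 (0.29 to 1.60, an estimated 71.1 and 28.6 reads), or 1.07 at equal sums. With 7KC under CD it was 0.20 (-0.57 to 1.14), and for WD against CD 0.44 (-0.29 to 1.41), so that the depth could not show differences there. For WD+7KC against CD+7KC it was 1.11 (0.55 to 1.89).

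Ratios between genes of the same library do not depend on how the libraries were scaled. The level of Ly96 was 24.2 times that of Tlr4 on CD, 18.8 on CD+7KC, 14.3 on WD and 6.74 on WD+7KC. MD-2 transcripts were thus above those of their receptor in every library, with the smallest ratio in WD+7KC. The ratio of Lbp to Cd14 was 12.4 on CD, 30.8 on CD+7KC, 22.4 on WD and 9.64 on WD+7KC. The ratio of Cd14 to Tlr4 was 3.90 in WD and 4.22 in WD+7KC, as both genes were higher with 7KC, and it was 7.40 in CD and 2.60 in CD+7KC.

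**Figure D3:**
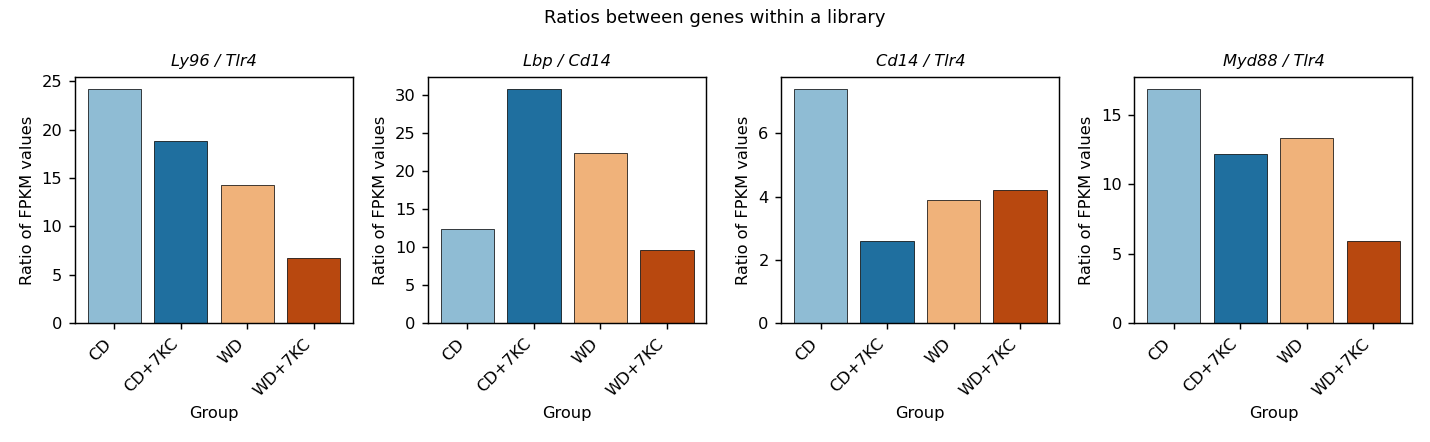
Ratios of FPKM values between genes of the same library, with 1 bar per group and axes that start at 0. The ratio of Ly96 to Tlr4 is 24.2 in CD and 6.74 in WD+7KC, and that of Lbp to Cd14 is 30.8 in CD+7KC and 9.64 in WD+7KC.

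Next, the receptors for bacterial lipoproteins and flagellin were compared. Tlr1 (chromosome 5, 64924679 to 64933563, minus strand), which pairs with TLR2, was at 0.324 FPKM on CD and 0.467 on CD+7KC, compared to 0.919 on WD and 2.14 on WD+7KC. It was higher under WD than under CD, with or without 7KC. The log2 fold change was 1.14 with 7KC under WD (0.53 to 1.92), 1.26 for WD against CD (0.43 to 2.76) and 1.98 for WD+7KC against CD+7KC (1.35 to 3.07). With 7KC under CD it was 0.42 (-0.67 to 1.90), and only 10.1 and 14.6 reads were estimated for these libraries.

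Tlr2 (chromosome 3, 83836272 to 83841767, minus strand), the shared partner of TLR1 and TLR6, was at 1.71 FPKM on CD and 1.84 on CD+7KC, compared to 2.59 on WD and 2.94 on WD+7KC. It was higher in both WD libraries than in both CD libraries, with log2 fold changes of 0.57 (0.06 to 1.14) without and 0.65 (0.20 to 1.18) with 7KC. The 7KC comparisons gave 0.18 (-0.27 to 0.65, or 0.39 at equal sums) under WD and 0.10 (-0.46 to 0.67) under CD, and the depth could not show a difference. The ratio of Tlr2 to Tlr1 was 5.27 on CD, 3.94 on CD+7KC, 2.81 on WD and 1.37 on WD+7KC.

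Tlr5 (chromosome 1, 182954788 to 182976044, plus strand), the flagellin receptor, was at 6.06 FPKM on CD and 5.28 on CD+7KC, compared to 4.79 on WD and 4.57 on WD+7KC. It had the highest level of the 6 receptors among the 10 genes in every library and, unlike Tlr1 and Tlr4, its lowest value was in WD+7KC. The log2 fold change for WD against CD was -0.33 (-0.66 to -0.02), or -0.30 (-0.63 to 0.02) at equal sums. With 7KC under WD it was -0.07 (-0.40 to 0.27), which became 0.15 after rescaling, and with 7KC under CD it was -0.19 (-0.50 to 0.10).

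The endosomal receptors differed from each other. Tlr3 (chromosome 8, 45395665 to 45411080, minus strand), which recognises duplex RNA, was at 1.34 FPKM on CD and 1.97 on CD+7KC, compared to 1.23 on WD and 2.03 on WD+7KC. Both libraries with 7KC lay above both without it. The log2 fold change was 0.52 with 7KC under CD (0.07 to 1.04) and 0.68 with 7KC under WD (0.22 to 1.24), while the comparisons of WD with CD gave -0.12 without and 0.04 (0.24 at equal sums) with 7KC. It was the only one of the 10 genes with a counting interval above 0 for 7KC under both diets, although neither value reached 1.

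Tlr7 (chromosome X, 167304929 to 167330558, minus strand), a receptor for viral RNA, was at 0.682 FPKM on CD and 0.529 on CD+7KC, compared to 0.676 on WD and 1.55 on WD+7KC. Only WD+7KC stood apart, with a log2 fold change of 1.09 against WD (0.49 to 1.91) and of 1.39 against CD+7KC (0.82 to 2.29). The values of -0.31 with 7KC under CD and of -0.01 for WD against CD had intervals that included 0.

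Myd88 (chromosome 9, 119335934 to 119341411, minus strand), the adaptor of all these receptors but TLR3, was at 9.23 FPKM on CD and 7.87 on CD+7KC, compared to 10.4 on WD and 8.93 on WD+7KC. Both libraries with 7KC lay below those without it on the same diet, with log2 fold changes of -0.23 (-0.55 to 0.09) under CD and -0.22 (-0.53 to 0.08) under WD, or -0.01 under WD at equal sums. The intervals included 0 in all 4 comparisons. The annotated span of Myd88 overlaps those of Slc22a14 and, on the other strand, Acaa1a, an abundant peroxisomal thiolase gene (90.9 FPKM in WD+7KC and 119 in WD), and the strand setting used for counting is not given in the sources used here.

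For the effect of diet itself, 1 of the 10 genes was above 1 for WD against CD (Tlr1) and none was below -1, beside 5.31% of 15597 genes above 1 and 4.38% below -1. For WD+7KC against CD+7KC, 4 were above 1 (Tlr1, Cd14, Tlr7 and Tlr4) and none was below -1, beside 8.01% of 15898 genes above 1 and 4.61% below -1. The medians were 0.08 and 0.45, compared with 0.01 and 0.003 for all genes. In the second comparison 8 genes were higher and 2 lower, where the split of all genes was 7988 to 7910. At equal sums it was 9 to 1 for the 10 genes and 10875 to 5023 for all genes. Each of these comparisons shares libraries with those on 7KC.

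The other 6 Toll-like receptor genes were all higher in WD+7KC than in WD. Tlr9, the receptor for bacterial DNA, was at 0.0555 FPKM on CD and 0.0830 on CD+7KC, compared to 0.0646 on WD and 0.377 on WD+7KC, with a log2 fold change of 1.53 with 7KC under WD (0.44 to 5.71) on an estimated 15.0 and 2.0 reads. Tlr11, a receptor for microbial profilin-like proteins, had an estimated 1 read in WD, with a log2 fold change of 1.47 (0.14 to 8.40). Both receptors rested on at most 3 estimated reads in CD, CD+7KC and WD.

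Tlr8, which lies 40599 bases from Tlr7 on chromosome X, was at 0.368 FPKM on CD and 0.306 on CD+7KC, compared to 0.4999 on WD and 1.36 on WD+7KC, a log2 fold change of 1.28 with 7KC under WD (0.61 to 2.39). Tlr6, which lies 18467 bases from Tlr1 on chromosome 5 and shares sequence with it, was at 0.114, 0.151, 0.176 and 0.479 FPKM in the same order, a log2 fold change of 1.07 on about 5.8 and 20.3 reads. Tlr13, which binds ribosomal RNA of bacteria, was at 0.643, 0.617, 1.13 and 2.32 FPKM, a log2 fold change of 0.97 (0.52 to 1.60). Tlr12, a partner of TLR11, had the highest level of all Toll-like receptors, with 8.55 FPKM on CD and 8.80 on CD+7KC, compared to 12.4 on WD and 13.8 on WD+7KC. With 7KC under WD the 6 genes had a median of 1.18 with 4 above 1, and with 7KC under CD a median of 0.02 with 3 higher, 3 lower and none past 1 or -1. At equal sums the latter split was 4 to 2.

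Because bulk liver was sequenced, more cells of a type and more RNA per cell cannot be told apart. Macrophage and Kupffer cell markers were therefore set beside these genes. All 12 markers were above 0 in every library, and their summed level was 252 FPKM on CD and 377 on CD+7KC, compared to 430 on WD and 812 on WD+7KC. With 7KC under WD all 12 were higher and 5 were above 1, with a median of 0.94 and values from 0.70 for C1qb, a complement component, to 1.55 for Adgre1, which encodes the F4/80 antigen. With 7KC under CD all 12 were higher as well, with a median of 0.70. Sinusoidal endothelial cell markers summed to 67.7 FPKM on CD and 103 on CD+7KC, compared to 55.0 on WD and 158 on WD+7KC. All 6 were above 1 with 7KC under WD, with a median of 1.55, from Pecam1 at 1.07 to Kdr at 1.95.

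Relative to the geometric mean of the 12 macrophage markers, set to 100 in each library, Tlr4 was at 3.60 in WD and 3.47 in WD+7KC, and Cd14 at 14.0 and 14.6. Tlr1 was at 4.23 and 4.92, and Tlr7 at 3.11 and 3.57. The change of these 4 genes was thus close to that of the markers, whose geometric mean was 21.7 and 43.5 FPKM. They were, however, the 4 with the largest changes of the 10 with 7KC under WD. The others were lower on this scale in WD+7KC than in WD, among them Tlr2 (11.9 and 6.76) and Tlr3 (5.65 and 4.66). Sinusoidal endothelial markers rose more than macrophage markers (median 1.55 against 0.94). The part of macrophage or endothelial cell number in the result was not tested. Between CD and CD+7KC, where the marker mean was 1.64-fold higher, Cd14 went from 32.2 to 8.14 and Tlr7 from 5.43 to 2.57 on the same scale. Tlr1 was at 2.58 and 2.27, and Tlr4 at 4.36 and 3.13. Ly96 was at 51.5 in WD and 23.4 in WD+7KC, Myd88 at 48.0 and 20.5, and Tlr5 at 22.0 and 10.5.

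**Figure D4:**
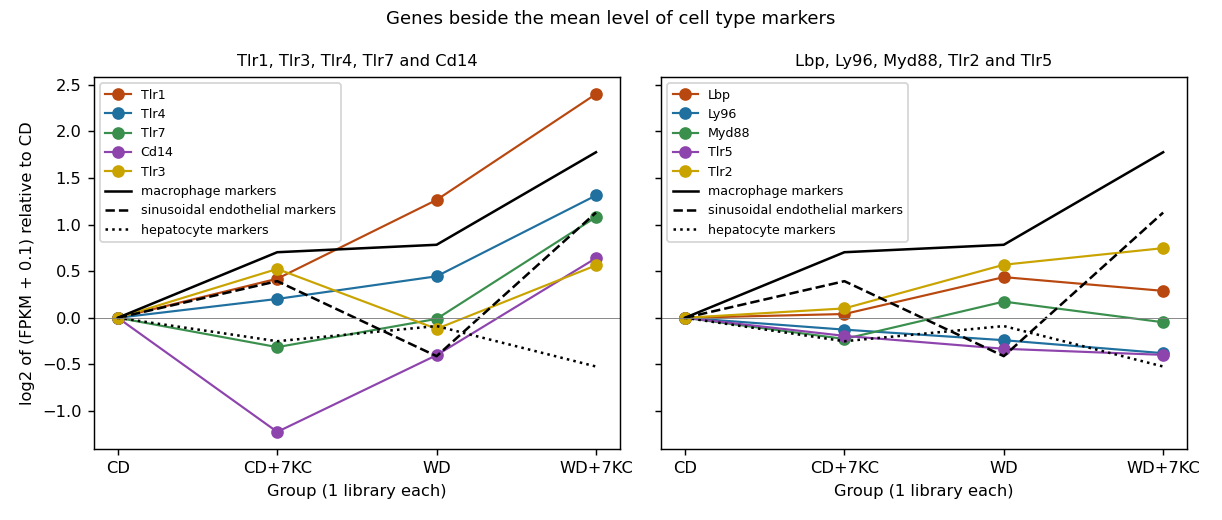
Log2 of FPKM + 0.1 relative to CD for Tlr1, Tlr3, Tlr4, Tlr7 and Cd14 (left) and for Lbp, Ly96, Myd88, Tlr2 and Tlr5 (right), beside the mean of 3 marker lists (black lines), with 1 library per group. Lines join values of the same gene or list. Cd14 is at its lowest in CD+7KC while the macrophage markers there lie above CD.

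Markers of other cells moved less evenly. Of the monocyte and neutrophil markers, 7 of 8 were in the tables, and they summed to 23.1 FPKM on CD and 19.6 on CD+7KC, compared to 16.3 on WD and 24.9 on WD+7KC, with a median of 0.71 with 7KC under WD and of -0.20 with 7KC under CD. Whether these cells had a part in the level of Cd14, which they also express, was not tested. With 7KC under WD, 5 of the 7 markers were higher and 2 lower, or 6 and 1 at equal sums. With 7KC under CD, 2 were higher and 5 lower. Among them S100a8, an inflammatory calcium-binding protein of neutrophils, was at 1.26 and its partner S100a9 at -0.09 (0.12 at equal sums) with 7KC under WD. B cell and plasmacytoid dendritic cell markers had a median of 0.14 with 7KC under WD and of 0.70 with 7KC under CD. Their sum was dominated by Bst2, which other cells also express (318 FPKM in WD and 313 in WD+7KC, -0.02 or 0.19 at equal sums), and Ms4a1 was at 0 in CD+7KC. Stellate cell markers had a median of -0.16, from Des at -0.25 to Hgf at 0.22, and that median became 0.05 at equal sums. Hepatocyte markers had a median of -0.49 (-0.28 at equal sums) with 1 higher and 6 lower, from Cyp2e1 at -0.86 to Apob at 0.07. The part of these cells in the levels of the receptors was not tested.

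Partners that help Toll-like receptors to fold, move or bind were compared next. Of 9 such genes, 2 were above 1 with 7KC under WD and none was below -1, with a median of 0.38. With the deposited values 7 were higher and 2 lower, and 9 were higher at equal sums. Slc15a3, an endolysosomal peptide and histidine transporter, had the largest value, with 4.24 FPKM in WD and 10.2 in WD+7KC (1.25). Cd180, a TLR4-like receptor of B cells and myeloid cells, was at 0.385 FPKM on CD and 0.980 on CD+7KC, compared to 1.34 on WD and 3.17 on WD+7KC, and it was above 1 in all 4 comparisons. Cnpy3, a chaperone of surface and endosomal receptors, had the smallest value (-0.17, or 0.05 after rescaling). Under CD the median was 0.22, and 8 genes were higher with 7KC and 1 lower.

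The signalling genes downstream were then examined. Of 17 adaptors and kinases, 1 was above 1 with 7KC under WD (Ticam2, the bridging adaptor of TLR4, at 0.172 and 0.643 FPKM) and none was below -1. Their median was 0.07, with 13 higher and 4 lower, or 16 higher and 1 lower at equal sums. Among those whose mean reached 1 FPKM, the values ran from -0.23 for Chuk, an IκB kinase subunit, to 0.42 for Traf3, a ubiquitin ligase. Under CD the median was -0.08, and 5 were higher with 7KC and 12 lower, or 7 higher and 10 lower after rescaling.

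All 9 transcription factor genes had a higher level in WD+7KC than on WD without 7KC, and their median change was 0.28. Irf8, a factor of the myeloid lineage, was above 1 (3.48 and 7.39 FPKM, 1.07), and Irf3 had the smallest value (0.06). Under CD, 7KC went with a higher level of 2 and a lower level of 7, and the median was -0.15. Among 9 inhibitors of the pathway the median was 0.06 with 7KC under WD, with 5 higher and 4 lower, or 7 higher and 2 lower after rescaling. Among inhibitors whose mean reached 1 FPKM, the values ran from -0.26 for Nfkbia, which retains NF-κB in the cytoplasm, to 0.44 for Tnfaip3, a ubiquitin-editing enzyme. The 1 gene above 1 was Socs1, which was listed at 0 in WD. Under CD, 4 inhibitors were higher with 7KC and 5 lower, or 6 and 3 at equal sums.

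LPS clearance and other bacterial sensors had a median of 0.50 over 12 genes with 7KC under WD. The scavenger receptors Stab1 (2.61 and 8.52 FPKM, 1.67), Stab2 and Msr1 were above 1, and the smallest value among genes whose mean reached 1 FPKM was that of Scarb1, a lipoprotein receptor that also binds LPS (-0.17, or 0.04 at equal sums). None was below -1. In that comparison 8 were higher and 4 lower, or 11 higher and 1 lower at equal sums. Under CD the median was 0.19, with 8 higher and 4 lower, and 1 gene was below -1, Pglyrp1, a peptidoglycan-binding protein that was listed at 0 in CD+7KC and rested on about 2.1 reads in CD.

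Target genes that LPS induces had higher values in WD+7KC than in WD, most of them within counting error. In CD+7KC their values were mostly lower than in CD. Of 14 such genes, 13 had values above 0, and Il6 was listed at 0 in all libraries. Under WD, 13 were higher with 7KC, with a median of 0.68. Among genes whose mean reached 1 FPKM, the smallest value was 0.29 (-0.14 to 0.75) for Saa3, an acute-phase protein. The largest was 0.87 (-0.53 to 2.35) for Ccl3, a chemokine. With the deposited values, counting intervals excluded 0 only for Ccl2, Cxcl10, Lcn2 and Icam1, and Irg1 had no interval. Ptgs2 had about 1.1 reads in WD+7KC and was listed at 0 in WD. Under CD, 3 were higher with 7KC and 10 lower (median -0.16), or 5 higher and 8 lower at equal sums. Cxcl2, a chemokine gene, was the 1 target above 1 under WD (1.51, -0.11 to 4.20) and was below -1 under CD (-1.23, -3.22 to 0.20). Ccl4, another chemokine gene, was also below -1 under CD (-1.48, -3.68 to 0.13). These intervals included 0, on an estimated 3.1 to 13.5 reads for Cxcl2 and 4.1 to 12.2 for Ccl4 in the libraries compared. With 7KC under CD, the counting interval excluded 0 only for Ccl2, also a chemokine gene, at -0.97 (-1.49 to -0.47). With 7KC under WD, Ccl2 was at 0.74 (0.17 to 1.34), so its intervals lay on opposite sides of 0, as for Cd14. The difference of Ccl2 between the diets was not tested. Ccl4 was at 2.41 FPKM on CD and 0.799 on CD+7KC, compared to 1.63 on WD and 2.90 on WD+7KC, the same order of libraries as for Cd14. These levels rested on an estimated 4.1 to 16.2 reads. The search for similar profiles below found Ccl4 near Cd14 from these same values, so the shared order is no separate result.

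**Figure D5:**
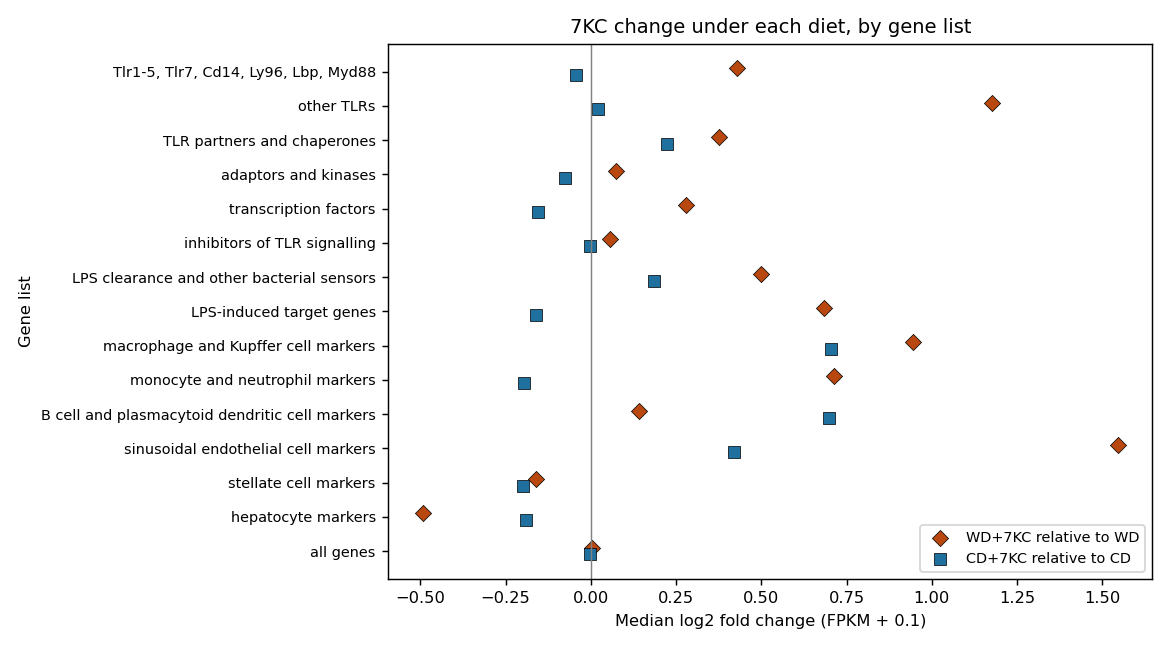
Median log2 fold change of FPKM + 0.1 for each gene list with 7KC under WD (diamonds) and with 7KC under CD (squares). The LPS-induced target genes lie at 0.68 and -0.16, and the macrophage and Kupffer cell markers at 0.94 and 0.70.

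Finally, the genes with the most similar profile over the 4 libraries were looked up among 10686 genes whose mean reached 1 FPKM, by the distance between log2 profiles centred on their own mean. With 4 libraries many genes lie close to any profile, and the distances are a description. Cd14 was nearest to Timp1 (distance 0.25), an inhibitor of matrix metalloproteinases, followed by Ccl4 (0.28) and Ncf4 (0.30), a subunit of the phagocyte oxidase. Tlr3 was nearest to Nup107 (0.05), Orm2 (0.05), an acute-phase protein, and Klra2 (0.07). Tlr2 was nearest to Mthfd1l (0.03), Calm3 (0.04) and Mxd3 (0.05). The nearest genes of Tlr5, Ly96, Lbp and Myd88 lay within 0.03. They were March5, Stk24 and March6 for Tlr5, Kank1, Zfr and Ube4b for Ly96, Ccdc12, Bad and Mfsd7c for Lbp, and Commd2, Elovl5 and Rit1 for Myd88. Tlr1, Tlr4 and Tlr7 were below a mean of 1 FPKM, so they were not searched and could not appear as nearest genes.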

How the data were processed

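RNA from the liver of ob/ob mice was sequenced as stranded mRNA libraries in 75-base single-end reads, with 1 library for each of CD, CD+7KC, WD and WD+7KC. The authors mapped the reads to mm10 with TopHat2 2.0.13, Bowtie2 2.2.3 and SAMtools 0.1.19, computed FPKM values with Cufflinks 2.2.1 and deposited 1 FPKM value per gene symbol. The annotation and the Cufflinks options are not given in the sources used here. FPKM values were read as deposited, with a pseudocount of 0.1, for genes above 0 in at least 1 of the libraries compared. With 1 library per group no test was run. Groups followed the sample titles.

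Depth was estimated from 13988 genes with a single RefSeq mRNA, as the fragment number that brought FPKM multiplied by the transcript length minus 200 bases closest to whole reads. Within 0.1 of a whole number lay 70.6% to 72.7% of low values. For genes with several mRNAs the longest was used. Positions and transcripts came from GENCODE vM21 (GRCm38, the build of mm10). The older symbol Irg1 was used for Acod1, and Ly6g and Tf matched no symbol and were not used.

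The 10 genes, the gene lists and the comparisons were chosen with earlier results of these data known. The genes named are the 10 genes, the 6 other Toll-like receptors and, of each other list, the genes with the largest and smallest change with 7KC under WD among those whose mean reached 1 FPKM. Others past 1 or -1, Ccl4, and the LPS-induced genes named for their counting intervals or low read numbers, were named after their values were seen. Similar profiles were ranked by Euclidean distance. Alternatives were pseudocounts of 1 and 0.01, a minimum of 1 FPKM, rescaling to equal sums with or without the 20 highest genes, upper-quartile and median-ratio scaling, and a 1.5-fold threshold. The code was tested on simulated data and run with Python 3.11.15, numpy 2.4.6, pandas 2.3.3, scipy 1.17.1 and matplotlib 3.10.9.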

Additional observations from a re-analysis of the deposited data

Results flagged for a closer look

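The change of Cd14 with 7KC had opposite directions under the diets. It was 1.04 with 7KC under WD and -1.22 with 7KC under CD, a difference of 2.26 on the log2 scale, and both counting intervals excluded 0. The difference was not tested, because each group had 1 library. Of 15029 genes above 0 FPKM in both comparisons, 67 (0.446%) were above 1 with 7KC under WD and below -1 with 7KC under CD, and Cd14 was among them. Of the 10650 whose mean reached 1 FPKM, 9 (0.0845%) were. The other 15 Toll-like receptor and LPS-sensing genes did not have counting intervals on opposite sides of 0.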

How the results depend on the processing

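With a pseudocount of 1, the number of the 10 genes past 1 or -1 was 0 with 7KC under WD, with 7KC under CD and for WD against CD, and 2 for WD+7KC against CD+7KC. This pseudocount is larger than the FPKM of several of these genes. The share of all genes past 1 or -1 under it is not given here, so these counts have no background beside them. With a threshold of a 1.5-fold change, 5 genes were past it with 7KC under WD, beside 3310 of all 15753 genes (21.0%), and with a minimum of 1 FPKM in 1 of the libraries compared the count for WD against CD was 0, because Tlr1 was left out. Under the remaining alternatives each count stayed within 1.5 times its value. The median of the 10 genes stayed inside the median bounds of their counting intervals under every alternative. Those bounds are wide and are not an interval of the median, so this says little about its stability. Rescaling to equal sums moved the median with 7KC under WD from 0.43 to 0.64. Of 274 single-gene values under the alternatives, 267 lay inside the counting interval of the gene and 7 outside it, no change past 1 or -1 reversed, and 10 values had the other sign (Tlr5, Ly96 and Lbp with 7KC under WD, Tlr5 for WD+7KC against CD+7KC and Tlr7 for WD against CD). The counting intervals of low genes are wide, as for Tlr1 with 7KC under WD (0.53 to 1.92), so lying inside them says little about stability. Leaving out a replicate was not possible with 1 library per group. No paired analysis was possible because each group had 1 library. The depth limits Tlr1, Tlr6, Tlr8, Tlr9 and Tlr11 most, with an estimated 1.0 to 14.6 reads in CD and CD+7KC.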

Other observations

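Values of some genes that moved with the diet, chosen after they were seen, are added. Irak3, a kinase-like inhibitor of Toll-like receptor signalling, was at 0.262 FPKM on CD and 0.262 on CD+7KC, compared to 1.18 on WD and 0.979 on WD+7KC, so that both WD libraries lay above both CD libraries. Its log2 fold change was 1.82 for WD against CD and 1.58 for WD+7KC against CD+7KC. These values rested on an estimated 8.4 reads in each CD library, 32.4 in WD and 34.5 in WD+7KC. The read numbers are approximate, as Irak3 has more than 1 RefSeq mRNA. Lcn2, an iron-scavenging acute-phase protein that LPS induces, was at 52.3 FPKM on CD and 57.8 on CD+7KC, compared to 155 on WD and 241 on WD+7KC. In contrast, the chemokine gene Cxcl1 was at 9.78 FPKM on CD and 7.19 on CD+7KC, compared to 3.41 on WD and 4.42 on WD+7KC, and its log2 fold change for WD against CD was -1.49. For WD against CD, 1 of 13 genes of the LPS-induced list was above 1 (Lcn2) and 3 were below -1 (Cxcl2, Cxcl1 and Ccl2). Of all 15597 genes, 5.31% were above 1 and 4.38% below -1. Cxcl2 rested on an estimated 13.5 reads in CD and 3.1 in WD.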
